A study of Mus musculus with 3 samples.

Results

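Loxhd1, Epsti1 and Wdfy4 are 3 mouse genes whose bodies held unusually long runs of H3K36me3, the trimethylation of lysine 36 of histone H3, in oocytes. They were chosen by their H3K36me3 values: after 2 runs in Cdh23, they held the longest runs of neighbouring 2 kb windows above 1 RPKM in all replicates, with Dnah8 tied with Wdfy4. The genes are 3 of the 21951 protein-coding genes of GENCODE M21. Together with 50 kb on both sides they took in 393 of 1186323 valid windows, of which 130 were at Loxhd1, 100 at Epsti1 and 163 at Wdfy4.

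The mark was measured by native ChIP-seq at ultra-low input, a form of ChIP in which uncrosslinked chromatin is cut by micrococcal nuclease. The cells were germinal vesicle (GV) oocytes, fully grown oocytes with an intact nucleus. All came from 25-day-old wildtype mice of the strain C57BL6/Babr, without any treatment, and 3 replicate pools of about 280 oocytes made up a single group with no control group. The labels do not say whether the pools came from separate animals, and a smaller antibody dose went into replicate 2. SDs and p-values below thus measure only the spread between these pools, with any effect of that dose included. The pools also cannot tell fewer oocytes that carry a mark from less of the mark in each oocyte.

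Valid windows held 7888140, 2692510 and 3166564 reads in replicates 1 to 3, so that 8 reads lifted a window above 1 RPKM in replicate 1 and 3 reads did so in the others. All 12 measured oocyte genes of the marker list had a mean above 1 RPKM over their bodies (median of the list 2.13, from 1.24 in Oosp1 to 3.73 in Bmp15). None of the 6 blood and immune genes did (0.228 in Ptprc to 0.611 in Spi1). Of 10 granulosa and cumulus cell genes, 4 did (median of the list 0.624, from 0.294 in Fst to 2.02 in Nr5a2), and the part of such cells in the domains was not tested. Of all 21063 protein-coding genes with a valid window, 52.5% had a mean above 1, with a median of 1.11.

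H3K36me3 is laid down by SETD2, a methyltransferase that travels with elongating RNA polymerase II, and so usually fills transcribed gene bodies and is low at their promoters. In growing oocytes it is known to mark chromatin that gains DNA methylation. H3K4me3 marks promoters and in oocytes also forms broad domains away from them, and H3K27me3, set by the Polycomb complex PRC2, is a mark of silent chromatin. The genes are known for work in other tissues. LOXHD1 is built of PLAT domains and is needed by the hair cells of the inner ear, and mutations in its gene cause hearing loss. EPSTI1 (epithelial stromal interaction 1) is induced by interferon. WDFY4 is a large BEACH domain protein through which type 1 conventional dendritic cells (cDC1) present antigens taken up from other cells.

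The annotated starts of Epsti1 and Wdfy4 are shown because the domain of the former began at its annotated start and that of the latter did not. Each sequence of 300 bases is written 5′ to 3′ on the strand of the gene, with CpG dinucleotides, the usual sites of DNA methylation, in capitals. The first 2 are RefSeq promoters of GRCm38.p6, with 250 bases before the start and 50 after it. The third, read from the GRCm38.p6 genome, is centred on the border between the last Wdfy4 window outside the domain and the first inside it, a border that is known to no better than 2 kb.
Epsti1 annotated start, chr14:77903989-77904288, plus strand: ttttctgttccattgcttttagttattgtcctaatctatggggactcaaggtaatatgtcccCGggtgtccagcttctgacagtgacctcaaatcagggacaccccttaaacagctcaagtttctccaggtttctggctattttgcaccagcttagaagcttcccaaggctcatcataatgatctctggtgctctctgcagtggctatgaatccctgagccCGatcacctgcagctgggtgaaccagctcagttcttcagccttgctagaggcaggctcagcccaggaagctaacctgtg
Wdfy4 annotated start, chr14:33185017-33185316, minus strand: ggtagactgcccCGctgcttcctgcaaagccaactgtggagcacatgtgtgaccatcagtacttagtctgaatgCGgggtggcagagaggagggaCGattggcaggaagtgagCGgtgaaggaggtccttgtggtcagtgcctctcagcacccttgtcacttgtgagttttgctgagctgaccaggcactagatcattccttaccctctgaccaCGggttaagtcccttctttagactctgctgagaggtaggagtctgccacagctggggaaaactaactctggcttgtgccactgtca
Wdfy4 domain start, chr14:33165851-33166150, minus strand: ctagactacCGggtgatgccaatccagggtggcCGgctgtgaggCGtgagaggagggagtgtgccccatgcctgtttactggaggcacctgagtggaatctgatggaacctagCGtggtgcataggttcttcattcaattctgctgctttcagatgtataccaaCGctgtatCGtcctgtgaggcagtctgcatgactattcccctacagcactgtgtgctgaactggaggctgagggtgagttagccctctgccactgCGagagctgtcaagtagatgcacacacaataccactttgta

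The Epsti1 start held 2 CpGs, and 85.9% of the 32851 RefSeq promoters in the table held as many or more. The Wdfy4 start held 5 (62.0% of promoters as many or more), and the stretch at the Wdfy4 domain start held 7, which is the median of the promoters. All 3 stretches were thus at or below the middle of the promoters in CpG count. On either strand none of them held TATAAA, which 13.6% of the promoters held, or the core of the interferon-stimulated response element, which 3.44% held. These letters say nothing of which factors bind there.

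The level over the gene bodies was near 3 RPKM in each of the genes, against less than 1 RPKM on both sides. Loxhd1 (chr18:77281958-77442930, plus strand, 161 kb) had 2.95, 3.79 and 3.82 RPKM in replicates 1 to 3 over 82 windows, a mean of 3.52 ± 0.492 (SD, n = 3). Epsti1 (chr14:77904239-78002657, plus strand, 98.4 kb) had 2.98, 3.36 and 3.47 RPKM in replicates 1 to 3 over 50 windows, a mean of 3.27 ± 0.256. Wdfy4 (chr14:32959547-33185508, minus strand, 226 kb) had 2.88, 3.05 and 2.99 RPKM over 114 windows, a mean of 2.97 ± 0.0879. Replicate 1 was the lowest in each gene, and the replicate ranges of the 3 genes overlapped. Ranked by this mean they stood at 43, 84 and 212 among the 21063 genes.

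**Figure D1:**
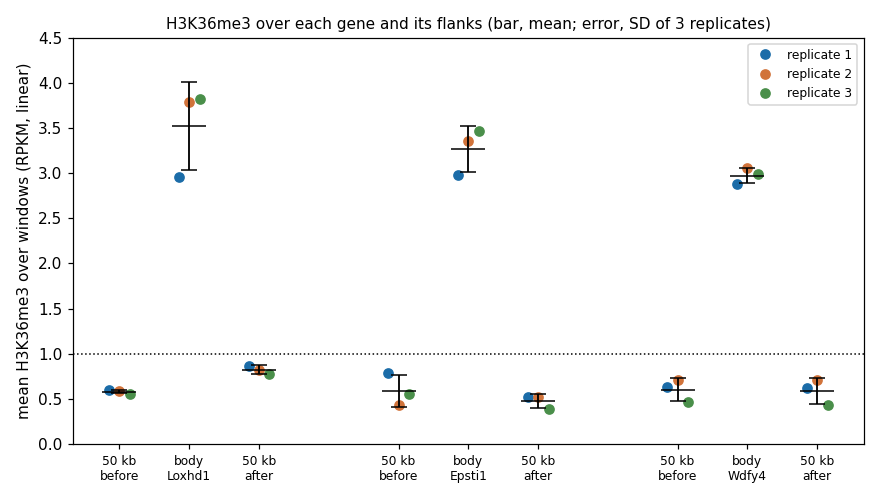
Mean H3K36me3 in RPKM (y axis, linear) over the windows of each gene body and of 50 kb before its start and after its end, with a point for each of the 3 replicates, a bar for their mean and an error bar for the SD. The body values lie between 2.88 and 3.82 RPKM and all flank values lie below the dotted threshold of 1.

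The 50 kb before the start held 0.596, 0.586 and 0.559 RPKM in replicates 1 to 3 at Loxhd1, 0.782, 0.428 and 0.555 at Epsti1, and 0.634, 0.710 and 0.465 at Wdfy4. The 50 kb after the end held a mean of 0.822 ± 0.0488 at Loxhd1, 0.477 ± 0.0735 at Epsti1 and 0.590 ± 0.143 at Wdfy4 (SD, n = 3). No flank of any replicate reached the level of a body. These contrasts follow from the choice of the genes and were not tested. The body windows above 1 RPKM in all replicates numbered 75 of 82 in Loxhd1, 49 of 50 in Epsti1 and 98 of 114 in Wdfy4, beside 19.7% of all valid windows.

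The longest run above 1 RPKM in all replicates took 45 windows (90 kb) in Loxhd1, 43 windows (86 kb) in Epsti1 and 39 windows (78 kb) in Wdfy4. The run in Epsti1 covered 87.1% of the gene, that in Loxhd1 55.9% and that in Wdfy4 34.5%. Of the 81054 such runs in the genome, those above them were both in Cdh23, a cadherin of hair cell tip links, with 52 windows (a run that also reached over Vsir) and 51 windows. Dnah8, an axonemal dynein heavy chain, tied with Wdfy4 at 39 windows. Just outside lay Rtl1, Fmn1 and Cit with 38 each. Several runs of 37 windows followed, among them a run over Tex35 and Rasal2 and a run in Upf2.

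Read as the stretch of windows with a mean above 1 RPKM, joined over gaps of 1 window, the domains were longer than these runs and each ran through most of its gene. The Wdfy4 domain was the longest, at 216 kb and 108 windows, followed by Loxhd1 with 174 kb and 87 windows and Epsti1 with 100 kb and 50 windows. Windows in them ranged from 1.26 to 5.12 RPKM in Wdfy4 (median 3.19), from 0.761 to 7.14 in Loxhd1 (median 3.06) and from 1.01 to 5.69 in Epsti1 (median 3.25). The mean was above 1 in 108 of 108, 86 of 87 and 50 of 50 of these windows, beside 31.8% of all valid windows, but this is how they were chosen. In Wdfy4, 10 windows were above 1 in only some replicates, and in 6 of them replicate 2 alone was below. In Loxhd1, 10 windows were not above 1 in all replicates, and in 5 of them replicate 2 alone was below. Replicate 2 had both the smaller antibody dose and the fewest reads. Whether either played a part here or at the domain ends below was not tested.

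**Figure D2:**
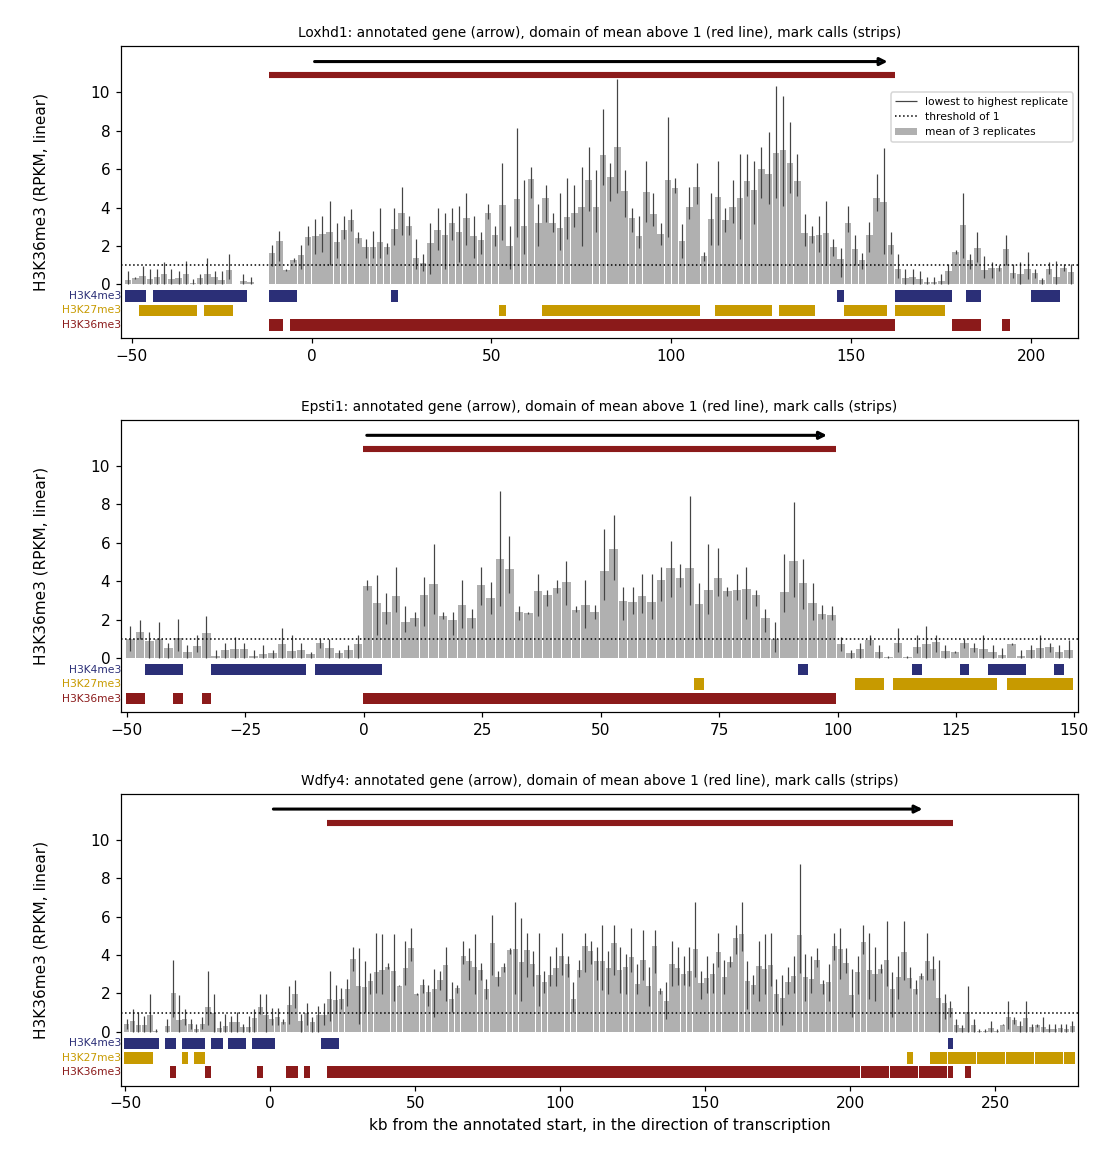
H3K36me3 in RPKM (y axis, linear) in every valid 2 kb window over each gene and 50 kb on both sides, against the distance in kb from the annotated start in the direction of transcription. Grey bars are the mean of 3 replicates, thin lines the lowest to the highest replicate, the arrow is the gene, the red line above is the domain and the strips below are windows called for each mark. The domain begins 12.0 kb before the annotated start of Loxhd1, at the start of Epsti1 and 19.5 kb inside Wdfy4, and the H3K27me3 strip runs under much of the Loxhd1 domain.

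The domain of Epsti1 matched the annotated gene to within a window at both ends. Before the start, in chr14:77902001-77904000, replicates 1 to 3 had 1.09, 1.19 and 0 RPKM. In the next window, chr14:77904001-77906000, which holds the annotated start and exon 1, they had 3.67, 3.57 and 4.06 RPKM. The change came within a single window and was seen in all replicates. A single step fitted to the reads of each replicate fell at that border, 0.238 kb before the annotated start, in 3 of 3 replicates. Without replicate 3 the domain began 2.24 kb before the start. At the other end the last window, chr14:78002001-78004000, had 2.04, 1.98 and 2.71 RPKM and the next had 1.09, 0.396 and 0.677. The step lay 1.34 kb after the annotated end in 3 of 3 replicates. The shorter Epsti1 transcripts end 39.8 kb before the end of the domain, so the domain end lay nearest to that of the longest annotated transcript. Which transcripts the oocytes made was not measured in these samples.

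The domain of Wdfy4 began inside the gene. The window of the annotated start, chr14:33184001-33186000, had 1.22, 0.396 and 0.338 RPKM in replicates 1 to 3 and was called for H3K4me3. Over the 20 kb before the domain, that window included, the level was 1.15, 0.753 and 0.846 RPKM, and 3 of 10 windows had a mean above 1. The domain began 19.5 kb downstream of the gene's start, in intron 1 of the long transcripts, with no exon in its first window. The step in the reads was 21.5 kb after the gene's start in replicate 1, 19.5 kb in replicate 2 and 27.5 kb in replicate 3, so that none of the replicates placed it at the annotated start. The nearest start of any GENCODE or RefSeq transcript on the same strand was 19.1 kb away. The rise was gradual: the 4 windows from the domain start had means of 1.69, 1.68, 1.73 and 2.24 RPKM and the fifth had 3.79. When gaps of 3 windows were joined the domain began 5.51 kb after the gene's start, and at a threshold of 2 RPKM it began 25.5 kb after it.

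At the 3′ side the Wdfy4 domain ran 9.55 kb past the annotated end. The 10 kb after the end held 2.31, 2.38 and 2.23 RPKM in replicates 1 to 3 (mean 2.31 ± 0.0724), and the following 10 kb held 0.397 ± 0.294 (SD, n = 3). The step was 9.55 kb after the end in replicates 1 and 3 and 3.55 kb after it in replicate 2. All replicates thus placed it downstream of the annotated end, by different lengths.

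The domain of Loxhd1 began before the annotated start. The first window of the domain, chr18:77270001-77272000, had 0.951, 1.98 and 2.03 RPKM in replicates 1 to 3 and lay 12.0 kb before the start, and the next had 1.22, 2.77 and 2.71. The window chr18:77274001-77276000 then had 0.815, 0.793 and 0.677 RPKM, the lowest of the domain. From there the level rose to 2.04, 2.38 and 3.05 RPKM in the window of the annotated start. The 10 kb before the start held a mean of 1.65 ± 0.281 RPKM, against 0.656 ± 0.149 in the 10 kb before that.

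The step in the Loxhd1 reads lay 3.96 kb before the start in replicate 1, 1.96 kb before it in replicate 2 and 12.0 kb before it in replicate 3. All replicates placed it before the start, spread over 10 kb. When no gap was joined the domain began 5.96 kb before the start, and at 1.5 or 2 RPKM it began 32.0 kb after it, behind a pair of windows with means of 1.37 and 1.12 RPKM. The nearest transcript start on the same strand was that of Loxhd1 itself, 11.7 kb away in RefSeq and 12.0 kb in GENCODE. Directly before the first window of the domain, 2 windows had no valid value, and both were wholly repeats by the soft-masking of the genome (100% of bases). The window before them, 87.7% repeats, had 0, 0.396 and 0 RPKM. Over all valid windows of chromosome 18, 30.0% of bases were repeats. The mark in chr18:77266001-77270000, the stretch without values, could not be measured.

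The Loxhd1 domain ended with the gene. The last window, chr18:77442001-77444000, had 1.90, 1.59 and 2.71 RPKM and the next had 0.407, 1.59 and 0.338. The step was 1.07 kb after the annotated end in replicates 1 and 3, and 16.9 kb before it in replicate 2, where the level had already dropped inside the gene. The antisense transcript AC102124.1, which overlaps the first part of Loxhd1 on the other strand, had 2.50 ± 0.340 RPKM over 10 windows, and ChIP reads do not tell to which strand the mark belongs.

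**Figure D3:**
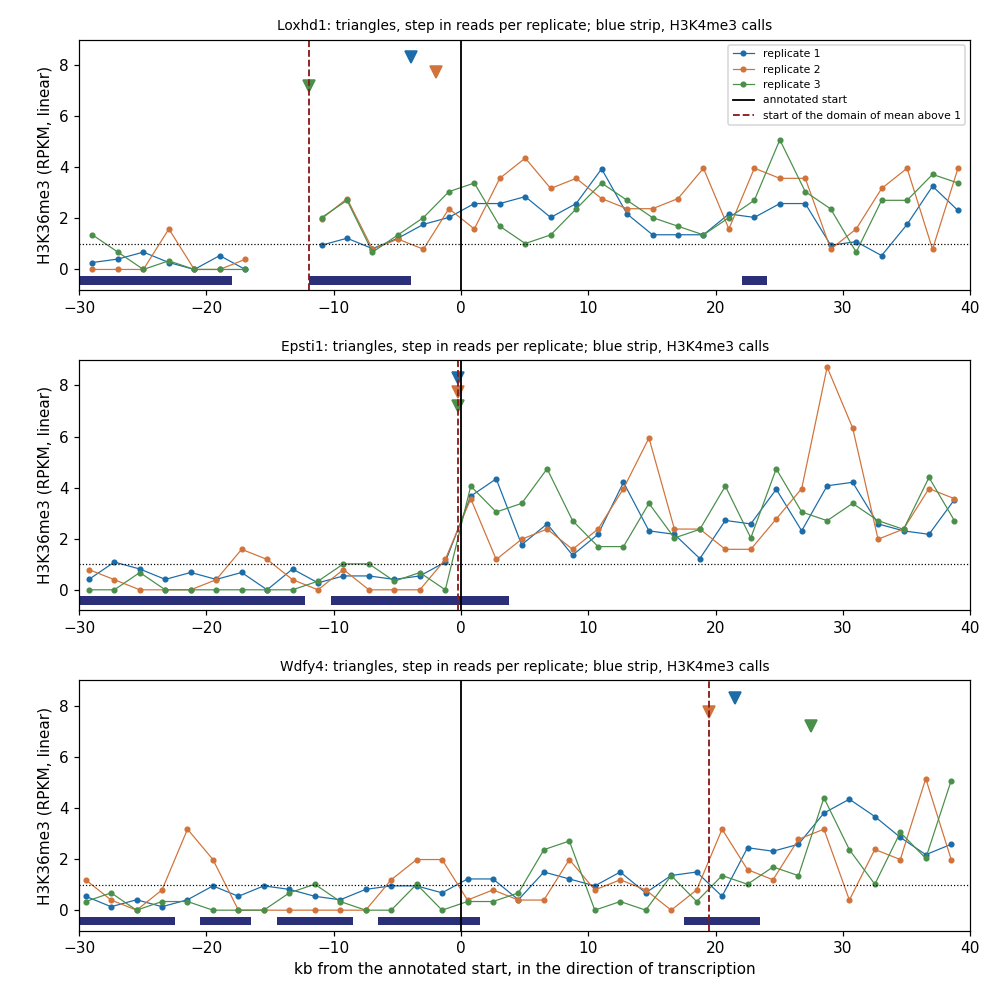
H3K36me3 in RPKM (y axis, linear) per replicate in windows around the annotated start (black line, 0 kb) of each gene, with the start of the domain as a dashed line, the step in the reads of each replicate as a triangle and H3K4me3 calls as a blue strip. Lines are broken where windows had no valid value. The triangles coincide at Epsti1, lie 1.96 to 12.0 kb before the start of Loxhd1 and 19.5 to 27.5 kb after that of Wdfy4.

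Domains of other genes also began before, at and after annotated starts. Of 345 further long genes (protein-coding, 20 kb or more) with a run of 20 or more windows above 1 RPKM in all replicates, 105 (30.4%) had a domain that began within 4 kb of the annotated start, 88 (25.5%) one that began earlier and 152 (44.1%) one that began later. The domain ended within 4 kb of the annotated end in 84 (24.3%) and more than 4 kb after it in 213 (61.7%). Both ends lay within 4 kb of the annotation, as in Epsti1, in 22 of the 345 genes (6.38%). A run shared by overlapping genes was counted for each of them. The domains of the 345 genes had a median length of 138 kb (quartiles 96 and 188 kb). Those of Epsti1, Loxhd1 and Wdfy4 had 100, 174 and 216 kb, so only that of Wdfy4 was above the upper quartile.

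Around Epsti1, H3K4me3 lay before the domain and H3K27me3 after it. In the 20 kb before the domain 9 of 10 windows were called for H3K4me3 (90%, exact 95% interval 55.5 to 99.7%) and 0 of 10 for H3K27me3 (0 to 30.8%). In the 20 kb after it 1 of 10 was called for H3K4me3 and 7 of 10 for H3K27me3 (70%, 34.8 to 93.3%). Of all valid windows, 28.3% were called for H3K4me3 and 30.0% for H3K27me3. Around the domains of the 345 further genes the median H3K4me3 share was 60% before and 50% after (quartiles 25 and 80% on both sides). The median H3K27me3 share there was 0% on both sides, with upper quartiles of 30% before and 40% after. The H3K4me3 run at the start took 7 windows and reached 2 windows (4 kb) into the domain. The nearest H3K27me3 call upstream was 334 kb away, and the nearest downstream 4 kb. The intervals cover the counting of windows only, and neighbouring windows are not independent.

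Wdfy4 had H3K27me3 after its domain and little of either mark close before it. All 10 windows in the 20 kb after the domain were called for H3K27me3 (exact 95% interval 69.2 to 100%) and none for H3K4me3. They belonged to a run of 53 windows (106 kb) that reached 4 windows into the domain, over the stretch past the annotated end, and on over Vstm4. Before the domain 2 of 10 windows were called for H3K4me3 (20%, 2.52 to 55.6%) and 0 of 10 for H3K27me3. A run of 3 H3K4me3 windows sat across the domain start inside the gene, as a run did at Epsti1, and the other lay at the annotated start. Over 50 kb before the domain the H3K4me3 share was 56%.

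Loxhd1 was flanked by windows with both marks. In the 20 kb after its domain 8 of 10 windows were called for H3K4me3 and 7 of 10 for H3K27me3, and the same 7 held both. These 7 windows began directly at the domain end. In the 20 kb before the domain, where 8 windows were valid, 7 were called for H3K4me3 and 4 for H3K27me3, and the H3K27me3 calls lay 10 kb or more away. The first 4 windows of the domain, all before the annotated start, carried H3K4me3. At a threshold of 1 RPKM with gaps of 1 window joined, then, the first windows of each domain were called for H3K4me3: 4 in Loxhd1, 2 in Epsti1 and 2 in Wdfy4. At 1.5 or 2 RPKM the Loxhd1 domain began in a window without this call. At 2 RPKM, or with gaps of 3 joined, so did that of Wdfy4. The Epsti1 domain began in the same called window at these settings. Over the whole domains the H3K4me3 counts were 6 of 87, 3 of 50 and 3 of 108, beside 16.0% of all windows with a mean H3K36me3 above 1. In the domains of the 345 further genes the median share was 9.68% (quartiles 6.38 and 15.2%).

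**Figure D4:**
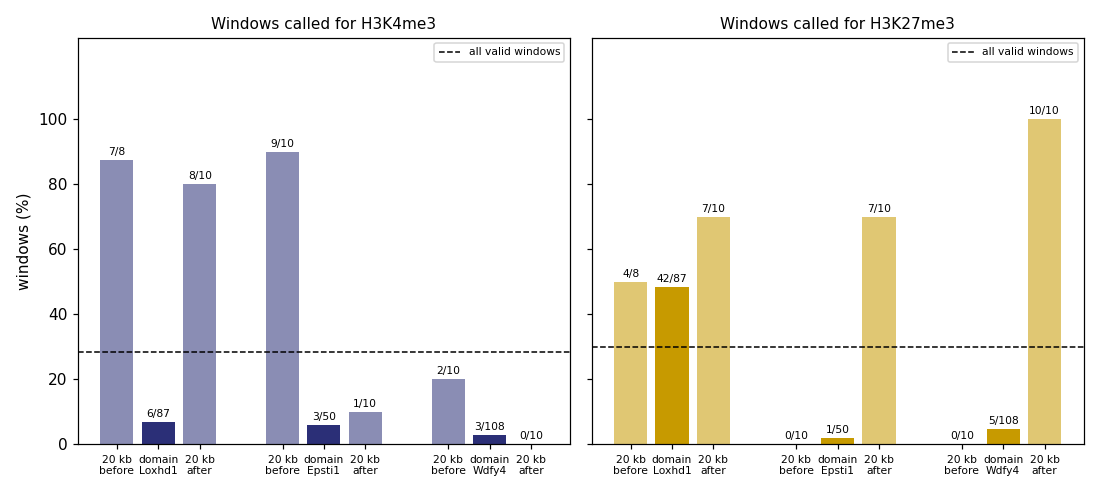
Share of windows called for H3K4me3 (left) and H3K27me3 (right), in percent from 0, in the 20 kb before each domain, in the domain and in the 20 kb after it, with the counts above the bars and the share of all valid windows as a dashed line. H3K27me3 is called in 42 of 87 windows of the Loxhd1 domain and in 1 of 50 and 5 of 108 windows of the others.

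Inside the domains, H3K27me3 calls were mostly those of Loxhd1. The mark was called in 42 of the 87 windows of Loxhd1 (48.3%), 1 of 50 in Epsti1 (2.00%) and 5 of 108 in Wdfy4 (4.63%), beside 8.10% of all windows with a mean H3K36me3 above 1. The calls give 1 value per window with no replicates, so the difference was not tested. Among the 345 further genes with long runs the median share was 0%, 257 had no such window, and 6 had a share at or above that of Loxhd1. These 6 were Adgrl2 (85.1%), Greb1 (68.3%), Cdh23 and Vsir, which shared a domain with 64.2%, and Tsc1 and Ak8, which shared another with 63.5%. The calls in Loxhd1 formed 5 runs, of which the longest took 22 windows (44 kb) and began 76 kb after the domain start. The 41 windows on the 3′ side of the body held 33 of them and the 41 on the 5′ side 9. In Wdfy4, 4 of the 5 lay past the annotated end.

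In Loxhd1 the windows called for both marks carried more H3K36me3, not less. The 42 windows with H3K27me3 had 3.47, 4.58 and 4.72 RPKM in replicates 1 to 3, and the 45 without it had 2.28, 2.80 and 2.75. The ratio was 1.53, 1.63 and 1.72, a log2 ratio of 0.70 ± 0.08 (SD, n = 3), and was above 1 in 3 of 3 replicates. The level also went with position. The 41 body windows on the 3′ side, with 33 of the calls, had 3.35, 4.35 and 4.42 RPKM in replicates 1 to 3. The 41 on the 5′ side, with 9, had 2.56, 3.23 and 3.22. The 45 windows without the call also took in the stretch before the annotated start. The called runs of 22, 8 and 5 windows lay inside the run of 45 windows above 1 RPKM in all replicates. Loxhd1 was chosen by that run, so the ratio is not free of the choice. Whether the ratio holds between windows at a like position was not tested. In Wdfy4 the ratio over 5 and 103 windows was 0.694, 0.580 and 0.742. The H3K27me3 calls came from other libraries, and whether both marks lay on the same chromatin or in different oocytes of a pool cannot be told apart.

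Along its body Loxhd1 rose from 2.58 ± 0.370 RPKM in part 1 of 10 equal parts to 4.85 ± 0.903 in part 6 and 4.81 ± 1.03 in part 8, and was back at 2.62 ± 0.508 in part 10. Its highest window, chr18:77366001-77368000, had 5.98, 10.7 and 4.74 RPKM. Wdfy4 had 1.05 ± 0.155 RPKM in part 1, which lies before and around the domain start, and between 2.76 and 3.62 in the other 9. Epsti1 stayed between 2.69 and 4.11 in all 10 parts.

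Over the whole bodies, windows with an exon had more H3K36me3 than those without in all replicates of Loxhd1 and Wdfy4, but within the domain this held for Loxhd1 alone. In Loxhd1 the log2 ratio of 40 exon windows to 42 others was 0.39, 0.40 and 0.63, a mean of 0.48 ± 0.14 (SD, n = 3), with means of 4.12 and 2.95 RPKM. In Wdfy4 it was 0.11, 0.13 and 0.34 over 50 and 64 windows, a mean of 0.19 ± 0.13, but these include the low stretch before the domain. Inside the Wdfy4 domain it was -0.0043, -0.012 and 0.22, a mean of 0.068 ± 0.13 (SD, n = 3), above 0 in 1 of 3 replicates. In Epsti1 it was 0.03, 0.10 and -0.01 over 14 and 36 windows, a mean of 0.04 ± 0.06, which was within its spread. In an exact permutation test, two-sided, that flips the signs of the replicates' ratios, the p was 0.25 in Loxhd1 and Wdfy4 and 0.5 in Epsti1, or 0.375, 0.375 and 0.5 after Benjamini-Hochberg adjustment over the 3 genes. With 3 replicates 0.25 is the smallest p this test can give, so no call at 0.05 was possible.

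Exon content and the H3K27me3 calls went together only in part. In Loxhd1, 22 exon windows were called for H3K27me3 and had 4.85 ± 0.914 RPKM, and 18 were not and had 3.23 ± 0.399. Of the windows without an exon, 20 were called and had 3.60 ± 0.439 RPKM and 22 were not and had 2.36 ± 0.328 (SD, n = 3). Windows with the call were higher in each replicate, with and without an exon. The 3′ side of the body, where the level was higher, held 24 of the exon windows and the 5′ side 16. Position along the body was not held fixed in the contrasts by exon or by call, nor was the run by which Loxhd1 was chosen.

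**Figure D5:**
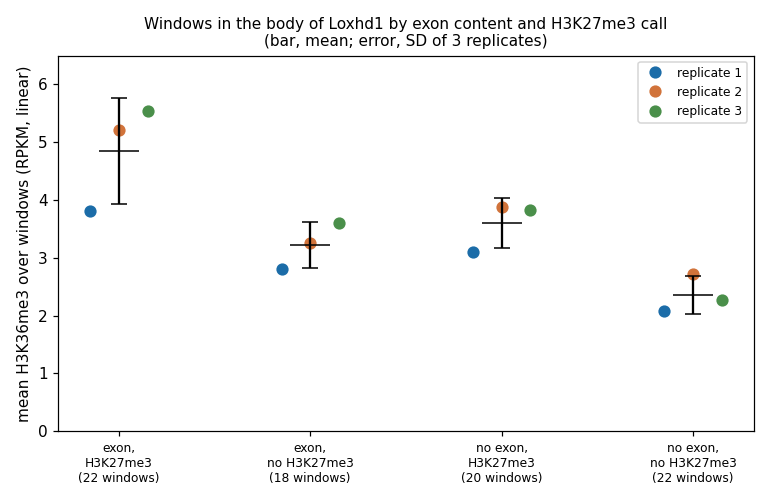
Mean H3K36me3 in RPKM (y axis, linear, from 0) over windows in the body of Loxhd1, split by whether a window holds an exon and whether it was called for H3K27me3, with a point for each of the 3 replicates, a bar for the mean and an error bar for the SD. Exon windows with the call are the highest, at 3.81 to 5.54 RPKM, and windows with neither are the lowest, at 2.08 to 2.72.

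Over 50 kb the H3K36me3 of the flanks differed in the same direction in all replicates of Loxhd1 alone. In each gene the direction changed with the width of the flanks. The log2 ratio of the 50 kb before the start to the 50 kb after the end was -0.50 ± 0.04 in Loxhd1, lower before the gene in 3 of 3 replicates, with p = 0.25 (0.5 adjusted) by the exact sign-flip permutation test. It was 0.27 ± 0.49 in Epsti1 and 0.04 ± 0.06 in Wdfy4, each positive in 2 of 3 replicates, with an exact permutation p of 0.5 (0.5 adjusted). Over 20 kb flanks it became 0.33 in Loxhd1, -0.093 in Epsti1 and -0.84 in Wdfy4, so that no direction is stated. These 20 kb hold the stretch before the Loxhd1 start and the stretch past the Wdfy4 end that belong to the domains.

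Over their whole bodies the neighbours lay below the members. St8sia5, a sialyltransferase gene that ends before Loxhd1, had 0.378 ± 0.117 RPKM with H3K4me3 in 36 of 38 windows and H3K27me3 in 22. Rnf165, a ubiquitin ligase gene that ends towards Loxhd1 from the other side, had 0.656 ± 0.0608, with H3K4me3 in 33 of 55 windows and H3K27me3 in 29. In Rnf165, 8 windows had a mean above 1, among them 4 successive windows (chr18:77460001-77468000) with means of 1.68, 3.09, 1.25 and 1.89 RPKM. Dnajc15 before Epsti1 had 0.823 ± 0.0884, with H3K4me3 in 20 of 28 windows and no H3K27me3, and the lincRNA Gm48954 after it had 0.474 ± 0.0716, with H3K27me3 in 15 of 16. Vstm4 after the end of Wdfy4 had 0.358 ± 0.164 with H3K27me3 in 42 of 42 windows. Arhgap22, which starts before Wdfy4 on the other strand, had 0.412 ± 0.0620 with H3K27me3 in 71 of 77. The antisense gene Gm49030 before Wdfy4 had 1.16 ± 0.933 over 2 windows, a spread that covers the threshold.

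Lrrc18, a leucine-rich repeat gene nested in Wdfy4 on the other strand, could not be told from its host. Its 13 windows had 2.99, 3.48 and 2.76 RPKM in replicates 1 to 3 and the 91 other domain windows in Wdfy4 had 3.05, 3.25 and 3.26. The ranges overlapped, and none of the Lrrc18 windows was called for H3K4me3 or H3K27me3.

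Most genes of lists related by tissue or protein domain lay below 1 RPKM, apart from the BEACH genes. Of 12 hair cell genes 3 had a mean above 1 RPKM over the body (median of the list 0.609, from 0.325 in Tecta, a protein of the tectorial membrane, to 3.17 in Cdh23). Of 16 measured lipoxygenase and PLAT domain genes 7 did, Loxhd1 included, from 0.211 in the lipoxygenase gene Alox15 to 3.52 in Loxhd1 (median 0.815). Of 11 other interferon-induced genes 4 did (median 0.575), and Ifit3 had no read in any replicate. Of 8 other cDC1 genes 2 did (median 0.707), with Clec9a, a receptor for dead cells, the lowest at 0.380. Of 8 other BEACH domain genes 7 did (median 1.78), and Nbea was the exception at 0.332 ± 0.0201. Set beside the 52.5% of all protein-coding genes, the first 4 lists were below and the BEACH genes above, and none of the lists was tested. The members were the highest of their lists, but were chosen for such values.

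Profiles were compared by level and shape together, as the Euclidean distance of log2(RPKM + 0.1) over 20 parts of the gene and its flanks. Among 9299 protein-coding genes of 20 kb or more, those nearest to Epsti1 were Fmn1, Heatr6 and Hacd2, at distances of 1.58, 1.83 and 1.94. Those nearest to Loxhd1 were Fbxo38 (1.97), Nfya (2.46) and Atp11a (2.51), and those nearest to Wdfy4 were Tubgcp3 (1.95), Kif20b (2.08) and Dnah8 (2.09). The median distance of all genes was between 6.12 and 6.23. Epsti1 and Wdfy4 lay 2.51 apart, Epsti1 and Loxhd1 2.95, and Loxhd1 and Wdfy4 3.82. The members were chosen for high levels, which enter these distances. All of these are means over the same 3 libraries.

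GC content was 46.9% in the Loxhd1 domain and 49.6 and 48.3% in the 20 kb before and after it, 41.6% in that of Epsti1 with 43.0 and 42.3% around it, and 45.9% in that of Wdfy4 with 46.3 and 45.7%. CpGs numbered 11.8, 9.07 and 9.68 per kb in the domains of Loxhd1, Epsti1 and Wdfy4, against 8.19 over the valid windows of chromosome 18 and 7.73 over those of chromosome 14. The 20 kb before and after held 14.6 and 14.6 per kb at Loxhd1, 8.3 and 7.15 at Epsti1 and 7.7 and 10.1 at Wdfy4, so that the Loxhd1 domain was lower than both its flanks and the Epsti1 domain higher. Repeats took 22.2, 24.4 and 14.9% of bases, below the 30.0 and 30.5% of those chromosomes. These values come from the reference genome and have no replicates.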

How the data were processed

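Trimmed reads were aligned to GRCm38 by the authors with Bowtie2 2.2.9 (also in the submitters' processing notes) and quantified in SeqMonk over adjoining 2 kb windows, leaving out windows with very low or very high input signal. The deposited values, named RPKM by the authors, are linear and given per replicate. The size of 1 read against the total is near that of values scaled to depth without division by window length, so the levels may be per 2 kb window rather than per kb. This leaves ratios between windows as they are. Replicate 2 was made with less antibody. The deposited mark calls name the windows above 1 RPKM for each mark, 1 call per window. Those for H3K4me3 and H3K27me3 come from earlier libraries, and the H3K36me3 call was the same as a mean above 1 in every window (0 differences).

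Values were whole multiples of a single read (0.136, 0.396 and 0.338 RPKM in replicates 1 to 3; 100% within 0.01 read), from which reads were recovered. The replicates differed by more than counting noise over 366 to 390 windows of the 3 regions (chi-square per degree of freedom 1.39 to 1.59), so none was taken for a copy of another. Whether they are independent samples was not tested. Python 3 scripts with numpy, pandas and scipy took means over windows that overlap GENCODE M21 genes, with no filter and no pseudocount. Edges were found by threshold and by a single Poisson step per replicate, tested on simulated data. Promoter sequences, repeats and further transcripts are from RefSeq. The genes and lists were chosen with earlier results of these data known. Named were the 3 genes, genes nested in them or within 50 kb, those with the next longest runs, the 3 nearest profiles for each, and the highest and lowest of each list. Replicates were left out in turn, and other thresholds, flanks and gaps were tried. Read counts limit single windows: the median window held 4 reads in replicate 1 and 1 read in the others.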

Additional observations from a re-analysis of the deposited data

How the results depend on the processing

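The mean exon ratio kept its sign under all 6 alternatives in each gene, but in Wdfy4 it fell to a log2 ratio of 0.068 inside the domain, above 0 in 1 of 3 replicates (exact permutation p = 1). Body levels stayed within the spread between replicates, apart from 2.91 RPKM in Epsti1 with medians over windows. The flank log2 ratio turned to 0.33 in Loxhd1, -0.093 in Epsti1 and -0.84 in Wdfy4 over 20 kb flanks, and to 1.66, -0.19 and -1.02 over windows that overlap no other gene. Domain starts against the annotated start moved to 32.0 kb in Loxhd1 at 1.5 and at 2 RPKM, to -5.96 kb with no gap joined and to -3.96 kb by a step in pooled reads (an alternative chosen after seeing the data). In Wdfy4 they moved to 25.5 kb at 2 RPKM and to 5.51 kb with gaps of 3 joined. Leaving out each replicate put the Epsti1 start between -2.24 and -0.238 kb. Domain ends moved to -16.9 kb in Loxhd1 and -52.5 kb in Wdfy4 at 2 RPKM, and to 15.5 kb in Wdfy4 with gaps of 3. Within 10 kb, H3K27me3 shares were 0% before and 100% after Loxhd1, and H3K4me3 shares 100% after Loxhd1, 100% before Epsti1 and 0% after it. Within 50 kb, H3K27me3 after Loxhd1 was 28% and H3K4me3 before Wdfy4 56%. Around the runs above 1 RPKM in all replicates, which end inside the domains, H3K4me3 was 0% before and 30% after Loxhd1 and 0% before Wdfy4, and H3K27me3 was 10% before Loxhd1, 10% after Epsti1 and 0% after Wdfy4. At 1.5 RPKM, 1 of 10 granulosa and cumulus genes passed (4 at 1 RPKM) and 3 of 12 interferon genes, Epsti1 included (5 at 1 RPKM). The causes of these shifts were not tested.

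Windows hold few reads in replicates 2 and 3, edges are known to 2 kb at best, and windows left out by the input filter give no value. The H3K4me3 and H3K27me3 calls have neither replicates nor levels here. Apart from the ratios taken within each replicate, no paired analysis was possible because the samples form a single group.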
